A study of Mus musculus with 9 samples.

Results

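The genes described are the amino acid transporters of 6 solute carrier families, taken as every row of the count table whose symbol is Slc1a, Slc3a, Slc7a, Slc36a, Slc38a or Slc43a followed by a number. The rule, which uses names and no measured value, found 42 genes of the 53342 in the table. Of these, 23 were among the 12511 genes with enough counts to be tested, and 19 were not.

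RNA was sequenced from bone-marrow-derived macrophages of wild-type C57BL/6J mice of both sexes, 8 to 12 weeks old. All 9 cultures took up spinal cord homogenate at 1% weight per volume (10 mg/mL) for 24 h, made from pooled cords, and differed in what they received from 2 h before it: vehicle (3 samples), rapamycin (3 samples) or Torin-2 (3 samples). Rapamycin acts on the mTORC1 complex, and Torin-2 occupies the ATP site of the mTOR kinase. The labels call the samples biological replicates, their compound doses were not stated in the labels used, and no group without homogenate was analysed here, so every value describes macrophages that had been fed spinal cord.

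Cells import and export amino acids through carriers that differ in substrate and coupling. Family 7 light chains exchange one amino acid for another and reach the plasma membrane only when joined to a heavy chain. For the light chains tested here that is Slc3a2 (CD98). Families 1 and 38 pull amino acids in with sodium. Family 36 includes carriers that move amino acids with protons, often out of lysosomes, and family 43 lets them pass down their gradient. mTORC1 is itself switched on by amino acids that reach the cytosol or the lysosome, so transporters stand both upstream and downstream of the kinase that the compounds inhibit.

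Promoter stretches of 2 kinds are shown first, and the tested genes that carry the first kind moved in different directions. RefSeq promoter windows (GRCm38.p6, 250 bases before to 50 bases after a transcript start) were found for 31 of the 42 genes, among them 16 of the 23 tested. The core of the C/EBP-ATF response element, TGATGNAA, which ATF4 and its partners bind, was searched on both strands and occurred in 3.97% of all 32851 windows. Among the 23 windows of tested transporters it occurred in 4, which belong to Slc7a11, Slc1a4 and Slc7a7. The Slc7a7 windows overlap and share a match, so they are not separate finds. In the stretches below, read 5′ to 3′ along the gene's own strand, capitals mark the matches. They lie at chr3:50443637-50443695 (Slc7a11), chr11:20332694-20332733 (Slc1a4), and chr14:54417922-54417961 and chr14:54418062-54418101 (Slc7a7), all on the minus strand.
Slc7a11: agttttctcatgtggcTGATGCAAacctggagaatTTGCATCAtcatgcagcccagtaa
Slc1a4: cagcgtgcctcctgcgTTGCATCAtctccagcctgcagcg
Slc7a7, nearer the start: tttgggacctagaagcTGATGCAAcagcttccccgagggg
Slc7a7, farther upstream: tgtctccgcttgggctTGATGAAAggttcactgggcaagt
Slc7a11 holds 2 matches that face each other, 66 and 47 bases before the start (written -66 and -47 in the window). As shown next, Slc7a11 rose under Torin-2, while Slc1a4 and Slc7a7 fell, the Slc1a4 value being given only as a description. The part of this core in those changes was not tested.

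The E-box CACGTG, the palindrome that MiT/TFE factors and Myc bind, occurred in 7.15% of all windows and in 2 of the 23, those of Slc36a1 and Slc38a7. The Slc36a1 window, at chr11:55204293-55204358 on the plus strand, holds 2 of them within 31 bases of the start (position -31 and position -3), and the last bases of the second are shared with a match to the antioxidant response core TGACNNNGC.
Slc36a1: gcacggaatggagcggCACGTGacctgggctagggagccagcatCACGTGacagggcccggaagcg
The antioxidant response core was in 12.4% of all windows and in 5 of the 23 windows (Slc36a1, Slc38a2, Slc7a1 and Slc7a6), and the FOXO core TGTTTAC in 3.65% of all windows and in 1 of the 23 (Slc7a11). Here the Slc7a6 windows overlap and share their match. A match is a description of letters, not of binding. Among the tested genes without a window were Slc7a5, Slc36a2 and Slc43a3.

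The libraries held 16116666 to 24044329 counts. Of the 16 macrophage markers listed, 16 were tested, and their summed level was 16470 to 22040 CPM in vehicle (CPM, read counts scaled to a common library size), 25950 to 27820 in rapamycin and 19580 to 21440 in Torin-2. Lyz2 was the largest part, with means of 9752, 14930 and 11710 CPM. By the test given below, 8 were higher (50%) and 6 lower (37.5%) with rapamycin than with vehicle, beside 24.6% and 26.2% of all tested genes. With Torin-2 5 were higher (31.2%) and 8 lower (50%), beside 32.5% and 32.9%. Transcripts that mark spinal cord cells had counts too. Oligodendrocyte and myelin markers, 11 of 11 with counts, summed to 482 to 616 CPM in vehicle, 694 to 850 in rapamycin and 368 to 425 in Torin-2, and neuron markers, 12 of 12 with counts, summed to 23.1 to 29.8, 30.6 to 42.03 and 15.4 to 18.6 CPM. Mbp was the largest part of the myelin sum, with means of 418, 613 and 327 CPM. Of the 7 myelin markers tested, 3 were higher (42.9%) and 1 lower (14.3%) with rapamycin than with vehicle. With Torin-2 0 were higher and 4 lower (57.1%). Endothelial markers summed to at most 14.9 CPM, neutrophil markers to at most 4.89 and lymphocyte markers to at most 0.825. In bulk RNA, fewer cells of a type and less RNA per cell cannot be told apart.

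Under Torin-2 the transporters mostly fell. Against vehicle, 13 of the 23 tested were lower and 4 higher, while 6 did not pass (edgeR's quasi-likelihood test, Benjamini-Hochberg adjusted p under 0.05 over all genes tested). Over all tested genes the same test called 32.5% higher and 32.9% lower, beside 17.4% higher and 56.5% lower of the transporters. The median log2 fold change of the tested transporters was -0.63, and that of all tested genes was -0.0078. Falls of at least 2-fold were seen for 7 transporters and rises of that size for 2. Changes of that size were not counted over all tested genes, whose log2 fold changes had quartiles of -0.532 and 0.503. Slc36a2 passed the filter on low counts through the vehicle group alone and Slc1a4 through vehicle and rapamycin, so a difference was built into their being tested. Over the 21 transporters above the filter in all 3 groups, 4 were higher (19.0%) and 11 lower (52.4%) with Torin-2 against vehicle, with 5 falls of at least 2-fold.

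Rapamycin gave 11 transporters lower and 4 higher against the same vehicle samples, with 8 that did not pass. Its background was 24.6% of all tested genes higher and 26.2% lower, against 17.4% and 47.8% of the transporters, and the transporters' median was -0.37 beside 0.0011 for all genes. Over the 21 above the filter in all groups, 4 were higher and 10 lower (47.6%). Scaled by library totals alone, rapamycin's calls over all genes were 37.4% higher in place of 48.5%, and the transporters counted 2 higher and 13 lower.

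Torin-2 against rapamycin, the comparison of both inhibitors, gave 9 transporters lower and 4 higher, with 10 that did not pass. Over all tested genes 24.2% were higher and 24.1% lower, and the transporters' shares were 17.4% and 39.1%, or 19.0% and 38.1% of the 21. Their median log2 fold change was -0.16, beside -7e-04 for all genes. With library totals alone, 59.7% of all calls in this comparison were higher in place of 50.1%, and 5 transporters were higher and 9 lower. The 3 comparisons share samples in pairs, so their values are set side by side and not counted as separate evidence.

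Sorted by calls, 3 genes rose in all 3 comparisons (Slc7a11, Slc38a2 and Slc36a4) and 5 fell in all 3 (Slc7a5, Slc7a6, Slc7a7, Slc7a8 and Slc43a3). Another 5 fell under both compounds against vehicle without passing between them (Slc36a1, Slc36a2, Slc38a1, Slc38a6 and Slc7a4), and 3 fell in both Torin-2 comparisons without passing for rapamycin against vehicle (Slc1a4, Slc38a10 and Slc7a1). All tested genes were not sorted in the same way, so the sorting only lists genes. Slc36a2 and Slc1a4 stand in it as a description, because of how they passed the filter. Slc3a2, Slc1a5 and Slc38a7 passed in none, though each passed in at least 1 when the replicate number was a block.

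**Figure D1:**
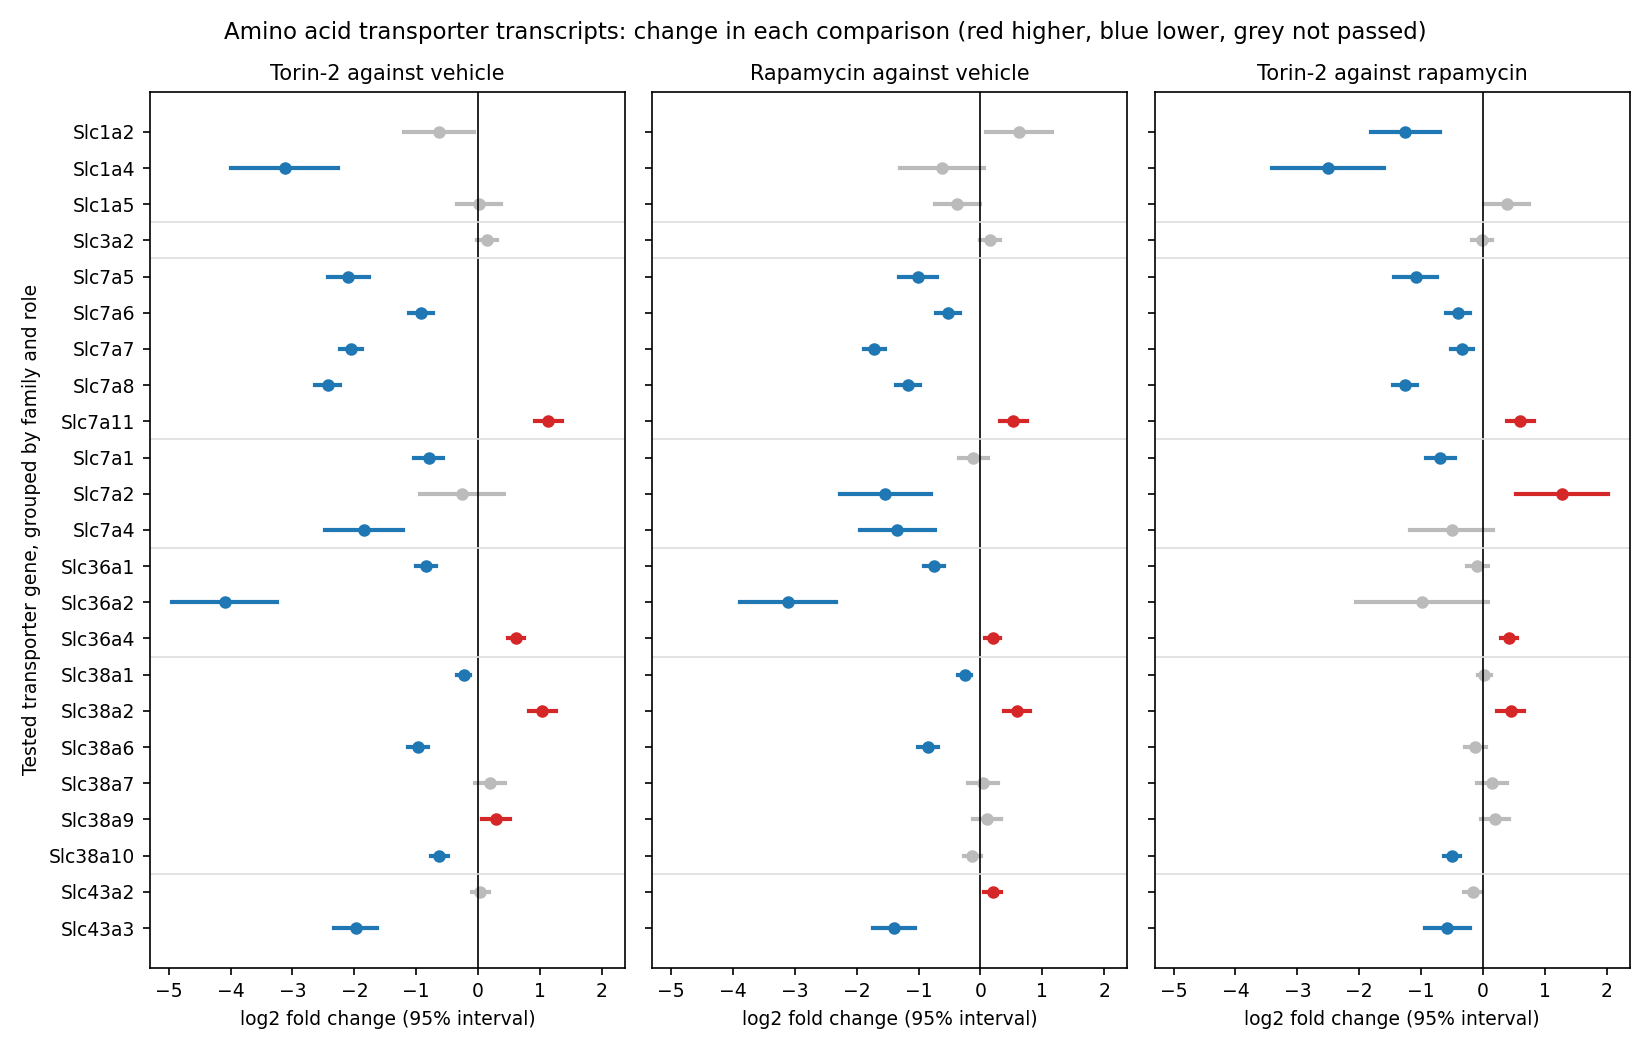
Log2 fold change of each of the 23 tested transporters (x axis, point with its 95% interval) in the 3 comparisons (panels), with genes grouped by family and role on the y axis. Red points passed as higher, blue as lower and grey did not pass. Slc7a8, Slc7a7 and Slc7a5 lie left of 0 in all 3 panels and Slc7a11 to the right.

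The heavy chain Slc3a2 (ENSMUSG00000010095, chromosome 19 from 8706882 to 8723369), which carries the light chains to the membrane, passed in no comparison. It stood at 376, 385 and 418 CPM in vehicle, 405, 419.8 and 486 in rapamycin and 423, 452 and 425 in Torin-2. The Torin-2 samples all lay above the vehicle samples by a small margin, and the rapamycin samples overlapped both groups. The log2 fold changes were 0.14 (95% interval -0.02 to 0.30, adjusted p = 0.106) for Torin-2 against vehicle, 0.15 (-0.01 to 0.31, adjusted p = 0.1) for rapamycin against vehicle and -0.01 (-0.17 to 0.15, adjusted p = 0.912) between the compounds. With the replicate number as a block, edgeR called the first at an adjusted p of 0.0434 and the second at 0.0438, and the first also passed with number 3 left out of every group (0.20, adjusted p = 0.0114), in a fit of only those groups (adjusted p = 0.0428) and without rapamycin replicate 3 (adjusted p = 0.0397).

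Its light-chain partners did change. Of the 5 tested, 4 fell and 1 rose in each of the 3 comparisons, where 32.9%, 26.2% and 24.1% of all tested genes were lower and 32.5%, 24.6% and 24.2% higher (Torin-2 against vehicle, rapamycin against vehicle, Torin-2 against rapamycin), and their median log2 fold change for Torin-2 against vehicle was -2.05.

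Slc7a8 (LAT2; ENSMUSG00000022180, chromosome 14 from 54722209 to 54781946), an exchanger of neutral amino acids large and small, fell most among them. Its level was 219, 211 and 238 CPM in vehicle, 106, 105 and 85.5 in rapamycin and 43.15, 43.3 and 37.6 in Torin-2. The 3 groups formed separate steps with no overlap. Torin-2 lay 5.39-fold below vehicle (log2 fold change -2.43, SE 0.093, adjusted p = 1.53e-09), rapamycin 2.25-fold below vehicle (-1.17, SE 0.089, adjusted p = 1.34e-06) and Torin-2 2.39-fold below rapamycin (-1.26, SE 0.092, adjusted p = 8.83e-07).

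Slc7a7 (y+LAT1; ENSMUSG00000000958, chromosome 14 from 54369442 to 54417780), which exports arginine and lysine in exchange for neutral amino acids and is the gene mutated in lysinuric protein intolerance, fell nearly as far with rapamycin as with Torin-2. It was at 111, 116 and 107 CPM in vehicle, 32.3, 37.0 and 32.2 in rapamycin and 24.9, 29.6 and 26.0 in Torin-2. Rapamycin was 3.29-fold lower than vehicle (log2 fold change -1.72, SE 0.079, adjusted p = 3.48e-08) and Torin-2 4.15-fold lower (-2.05, SE 0.08, adjusted p = 1.66e-09). Between the compounds the step was 1.26-fold (-0.34, SE 0.081, adjusted p = 0.00481). Slc7a7 shares 232 exon bases with Oxa1l, which rose (log2 fold change 1.39 for Torin-2 against vehicle and 0.90 for rapamycin), and without strand their reads there cannot be told apart.

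Slc7a5 (LAT1; ENSMUSG00000040010, chromosome 8 from 121881150 to 121907694), the carrier of leucine and other large neutral amino acids, was a minor light chain in these cells. Vehicle samples held 15.97, 21.6 and 17.0 CPM, rapamycin samples 7.53, 9.80 and 9.67 and Torin-2 samples 4.28, 3.83 and 4.60. Each group was separate from the others, with Torin-2 4.28-fold below vehicle (log2 fold change -2.10, SE 0.152, adjusted p = 2.09e-07), rapamycin 2.01-fold below vehicle (-1.01, SE 0.142, adjusted p = 0.000119) and Torin-2 2.13-fold below rapamycin (-1.09, SE 0.158, adjusted p = 0.000144).

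Slc7a6 (y+LAT2), which has a substrate range close to that of Slc7a7, moved the same way with a smaller step. It was at 33.6, 37.4 and 31.2 CPM in vehicle, 22.4, 24.4 and 24.2 in rapamycin and 18.6, 16.3 and 18.9 in Torin-2. Again no group overlapped another, and the log2 fold changes were -0.92 (adjusted p = 2.26e-06) for Torin-2 against vehicle, -0.52 (adjusted p = 0.000423) for rapamycin against vehicle and -0.40 (adjusted p = 0.00328) between the compounds.

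Slc7a11 (xCT; ENSMUSG00000027737, chromosome 3 from 49892526 to 50443614), which brings in cystine in exchange for glutamate and so feeds glutathione synthesis, was the one light chain that rose. It stood at 119.9, 143 and 139 CPM in vehicle, 171, 204 and 205.5 in rapamycin and 278, 336 and 269.7 in Torin-2. The order of the groups was the reverse of that of the other light chains, with no overlap. Torin-2 was 2.2-fold above vehicle (log2 fold change 1.14, SE 0.101, adjusted p = 1.14e-06), rapamycin 1.44-fold above vehicle (0.53, SE 0.101, adjusted p = 0.001) and Torin-2 1.52-fold above rapamycin (0.61, SE 0.1, adjusted p = 0.000379). It is also the gene with the paired response-element cores printed above.

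**Figure D2:**
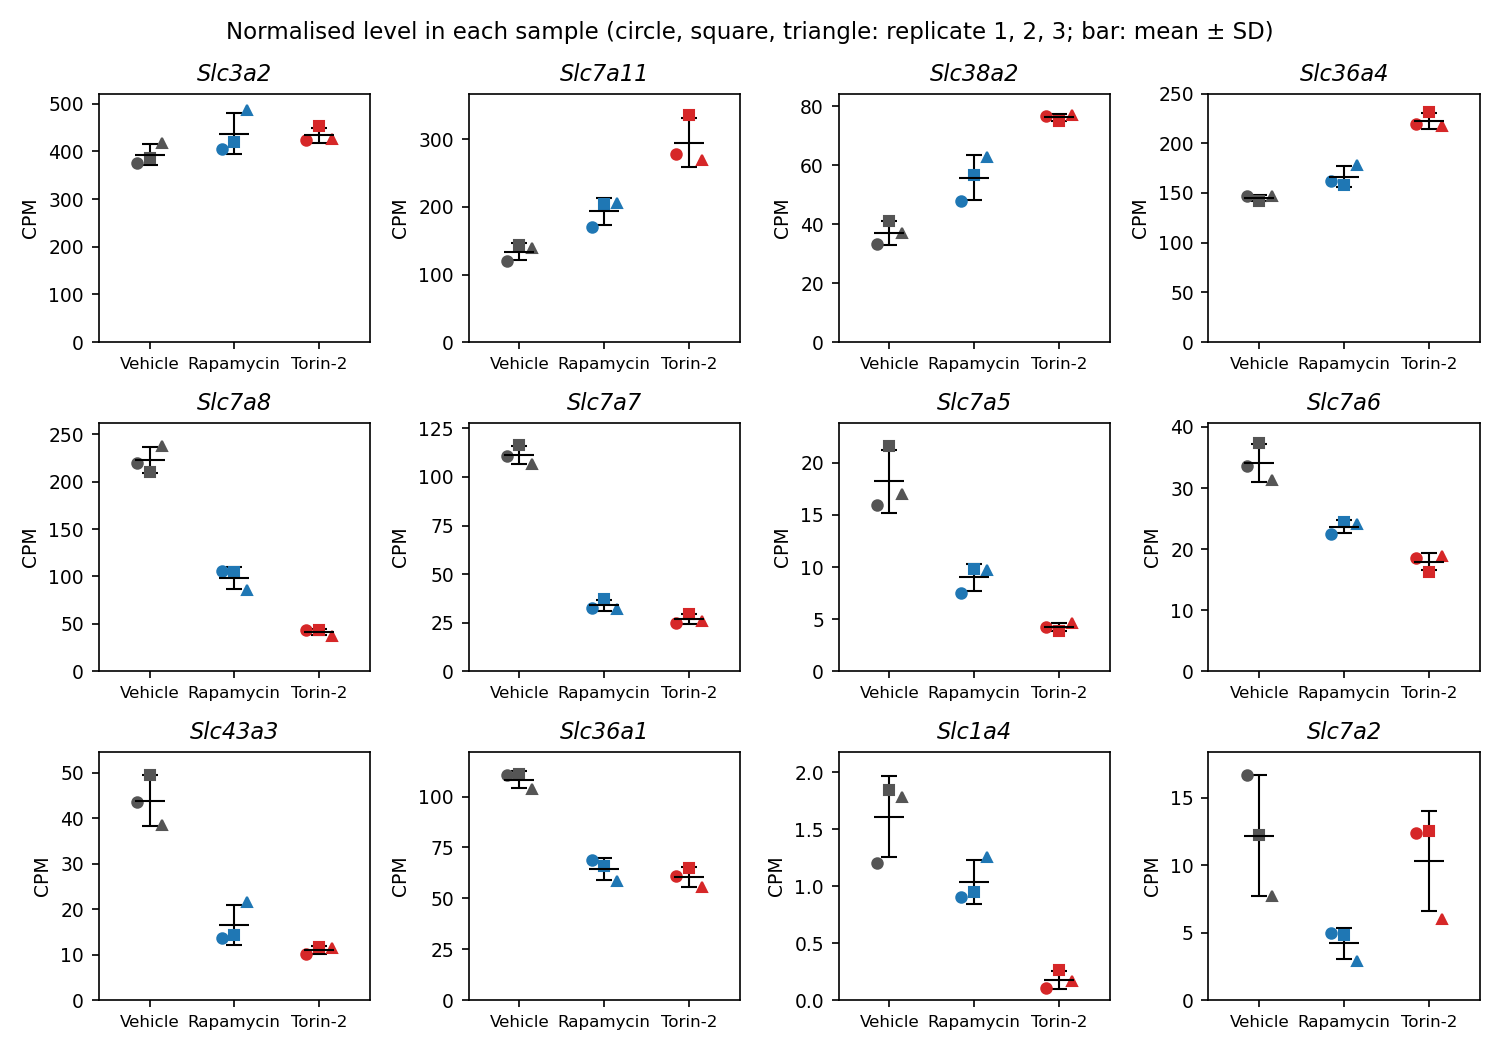
CPM of 12 transporters (panels; y axis from 0) in each of the 3 vehicle, 3 rapamycin and 3 Torin-2 samples, with the mean and SD of each group as bars. Slc7a11, Slc38a2 and Slc36a4 climb from vehicle through rapamycin to Torin-2, Slc7a8, Slc7a5 and Slc7a6 descend in the same order, and Slc7a2 is low in rapamycin alone.

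Because 1 light chain rose while the others fell, the make-up of the pool that competes for Slc3a2 changed. Levels of different genes were compared as CPM per kb of exon. The partners together summed to 100.1 ± 2.16 CPM per kb (SD, n = 3) in vehicle, 51.5 ± 2.88 in rapamycin and 42.6 ± 3.30 in Torin-2, and without Slc7a11 to 90.5 ± 1.28, 37.6 ± 2.75 and 21.4 ± 0.734. Slc3a2 on the same scale was 111 ± 6.27, 124 ± 12.2 and 123 ± 4.545, so its level per summed partner was 1.11 ± 0.051 in vehicle, 2.41 ± 0.326 in rapamycin and 2.89 ± 0.121 in Torin-2. With the length of the principal coding transcript, chosen after seeing the data, this ratio was 1.634 ± 0.078, 3.495 ± 0.458 and 3.995 ± 0.184 in the same order. Its size thus depends on the length used.

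Slc7a11 held 8.82%, 10.15% and 9.845% of the light-chain pool in the vehicle samples. In rapamycin its share was 24.4%, 26.7% and 29.8%, and in Torin-2 48.3%, 52.1% and 48.3%, with no overlap between groups. Slc7a8 went from 44.4 ± 2.76% of the pool in vehicle to 38.3 ± 3.86% in rapamycin, which overlapped, and to 19.4 ± 1.25% in Torin-2, which did not. Slc7a7 had 33.6 ± 1.46% in vehicle, 19.8 ± 0.501% in rapamycin and 19.0 ± 0.746% in Torin-2.

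In vehicle the pool was thus mainly Slc7a8 and Slc7a7 transcripts, and in Torin-2 the cystine carrier was its most abundant member. An exact permutation test over 3 against 3 samples cannot go below p = 0.1, and the shares of Slc7a11 reached that value in all 3 comparisons. With the length of the principal coding transcript in place of the exon union, an alternative chosen after seeing the data, Slc7a11 held 10.98%, 30.4% and 53.3% and Slc7a8 41.2%, 35.1% and 16.95% in vehicle, rapamycin and Torin-2. These are shares of transcripts, and protein was not measured.

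**Figure D3:**
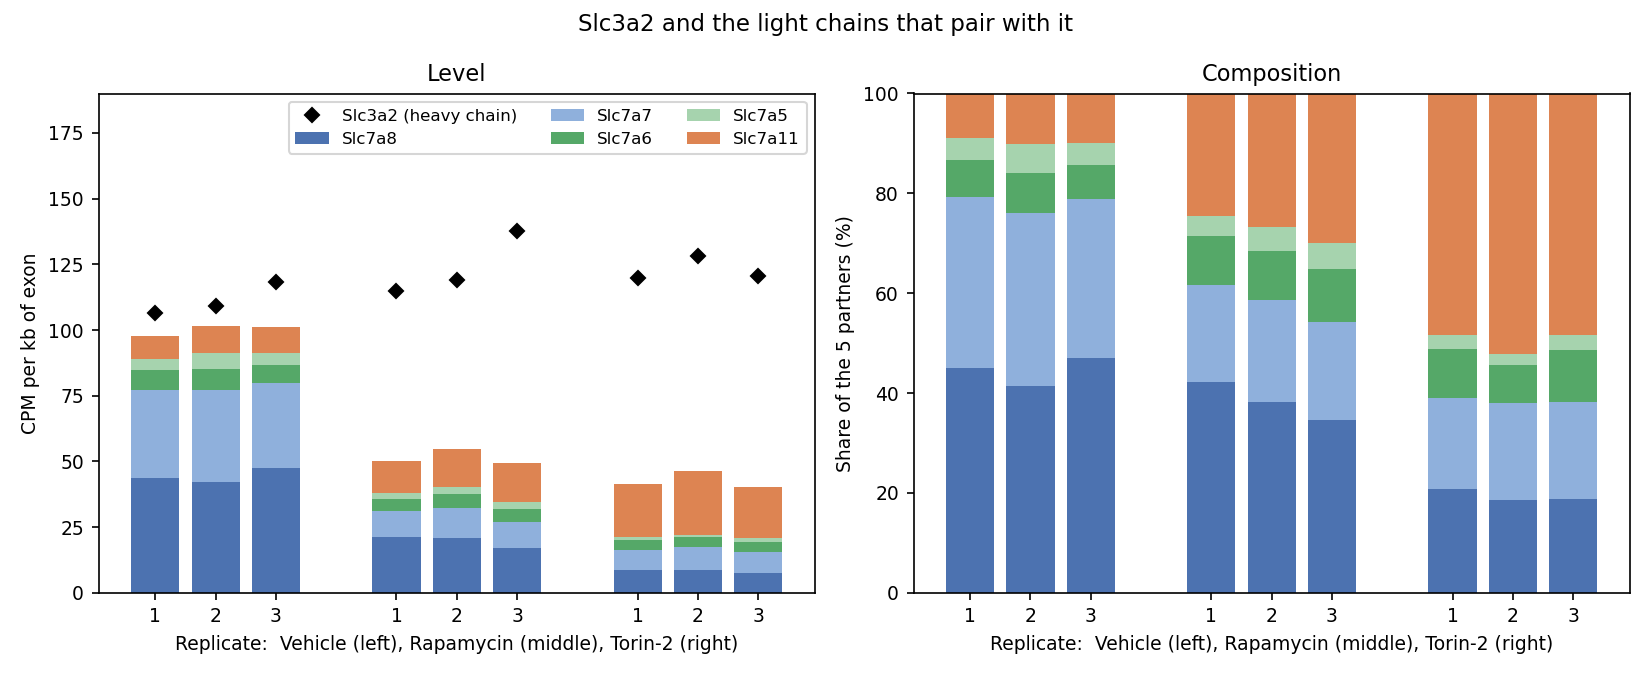
Left, CPM per kb of exon of the light chains stacked for each sample, with Slc3a2 as a diamond. Right, the share of each light chain in that sum (%). The stack drops from about 100.1 in vehicle to 51.5 in rapamycin and 42.6 in Torin-2 while the diamonds stay above it, and the Slc7a11 segment grows to about 49.6% in Torin-2.

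The cationic carriers, which bring in arginine and lysine, gave a different picture. Slc7a1 (CAT1), the constitutive arginine carrier of most cells, was lower in Torin-2 than in either other group. It was at 40.3, 46.7 and 38.1 CPM in vehicle, 33.0, 38.9 and 43.5 in rapamycin and 23.0, 25.9 and 23.0 in Torin-2. Rapamycin overlapped vehicle (log2 fold change -0.11, 95% interval -0.345 to 0.12, adjusted p = 0.401), while Torin-2 was 1.74-fold below vehicle (-0.80, SE 0.108, adjusted p = 3.96e-05) and 1.61-fold below rapamycin (-0.69, SE 0.109, adjusted p = 0.000285).

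Slc7a2 (CAT2), the arginine carrier that activated macrophages use to supply nitric oxide synthase and arginase, was the only tested transporter that fell with rapamycin and rose from rapamycin to Torin-2. Its level was 16.7, 12.2 and 7.70 CPM in vehicle, 4.96, 4.83 and 2.91 in rapamycin and 12.4, 12.5 and 6.00 in Torin-2. Rapamycin samples lay below all others, and vehicle and Torin-2 overlapped. The log2 fold changes were -1.54 (SE 0.337, adjusted p = 0.00251) for rapamycin against vehicle, 1.28 (SE 0.341, adjusted p = 0.00859) for Torin-2 against rapamycin and -0.26 (95% interval -0.935 to 0.42, adjusted p = 0.479) for Torin-2 against vehicle.

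Replicate 3 was the lowest for Slc7a2 in every group. Fibroblast and mesenchymal markers, 10 of 10 with counts and 7 tested, were also lowest in replicate 3, and summed to 112.5, 85.9 and 35.2 CPM in vehicle, 359.9, 257.4 and 74.2 in rapamycin and 131, 115 and 41.9 in Torin-2. Their sum was highest in rapamycin, where Slc7a2 was lowest. Fn1 was its largest part there, at 139 ± 85.6 CPM (SD, n = 3), beside 22.3 ± 10.6 in vehicle and 78.6 ± 40.1 in Torin-2. Of the 7 tested, only Fn1 passed for rapamycin against vehicle. With Torin-2 against vehicle Fn1 was higher and 4 others lower (57.1%, beside 32.9% of all tested genes). The part of such cells in the Slc7a2 result was not tested. Across all alternatives tried, which include leaving number 3 out of every group, the rapamycin log2 fold change of Slc7a2 ran from -1.78 to -1.24, with adjusted p of at most 0.0132.

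Slc7a4, grouped with these carriers by sequence though its transport activity is uncertain, fell with both compounds. It was at 7.88, 7.09 and 6.88 CPM in vehicle, 2.12, 3.79 and 2.61 in rapamycin and 2.25, 2.82 and 1.11 in Torin-2. Vehicle lay above both compounds, with log2 fold changes of -1.85 (adjusted p = 0.000128) for Torin-2 and -1.34 (adjusted p = 0.00182) for rapamycin, and the compounds overlapped (-0.505, 95% interval -1.18 to 0.17, adjusted p = 0.199). Per kb of exon the cationic carriers summed to 6.71 ± 0.7875 CPM in vehicle, 4.48 ± 0.492 in rapamycin and 3.70 ± 0.709 in Torin-2 (SD, n = 3), and Slc7a2 made up 19.6 ± 5.41%, 10.52 ± 3.57% and 29.8 ± 6.47% of them.

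Within family 36, the members went apart. Slc36a1 (PAT1), which lets small neutral amino acids out of lysosomes, was at 110.4, 110.9 and 103.6 CPM in vehicle, 68.6, 66.0 and 58.4 in rapamycin and 61.2, 64.8 and 55.4 in Torin-2. Both compounds lay below vehicle and overlapped each other, with log2 fold changes of -0.84 (SE 0.075, adjusted p = 1.14e-06) for Torin-2, -0.75 (SE 0.075, adjusted p = 9.84e-06) for rapamycin and -0.09 (95% interval -0.26 to 0.08, adjusted p = 0.356) between them. Slc36a1 is the gene with the E-box pair printed above.

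Slc36a4 (PAT4), a high-affinity carrier of proline and tryptophan, rose. It stood at 147, 142 and 147 CPM in vehicle, 162.5, 158 and 178.5 in rapamycin and 219, 231 and 217 in Torin-2. The groups did not overlap, and the log2 fold changes were 0.62 (SE 0.057, adjusted p = 1.58e-06) for Torin-2 against vehicle, 0.20 (SE 0.057, adjusted p = 0.0126) for rapamycin against vehicle and 0.42 (SE 0.057, adjusted p = 9e-05) between the compounds. The rapamycin call was lost with library totals alone (0.10, adjusted p = 0.14) and with number 3 left out of every group (0.15, adjusted p = 0.0523).

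Slc36a2 (PAT2), a carrier of glycine and proline, was a low transcript that nearly vanished with either compound. The counts were 107, 88 and 84 in vehicle, 7, 14 and 7 in rapamycin and 3, 9 and 3 in Torin-2, and as CPM 4.58, 4.27 and 4.04, then 0.4505, 0.663 and 0.351, then 0.16, 0.478 and 0.123. Vehicle stood far above both, with log2 fold changes of -4.10 (SE 0.391) for Torin-2 and -3.11 (SE 0.356) for rapamycin, given as a description because only the vehicle group brought it past the filter. Without Torin-2 replicate 2 the former was -4.89. A filter that does not look at groups, a mean of at least 1 CPM over all 9 samples, also kept the gene. Its mean of 1.68 CPM rests on vehicle too (4.30 CPM, beside 0.488 in rapamycin and 0.254 in Torin-2). With that filter the changes were -4.11 and -3.12, again given as a description. The compounds overlapped (-0.99, 95% interval -2.05 to 0.08, adjusted p = 0.115), except that without Torin-2 replicate 2 the change was -1.78 and passed (adjusted p = 0.0118).

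Slc36a1 and Slc36a2 lie next to each other on chromosome 11, 19272 bases apart on opposite strands, with 0 protein-coding genes between them. Both were lower with each compound, by amounts that differed widely: the Torin-2 log2 fold changes were -0.84 and -4.10.

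Family 38 holds the sodium-coupled carriers of glutamine and other neutral amino acids. Of 6 tested, 2 were higher (33.3%), 3 lower (50%) and 1 did not pass for Torin-2 against vehicle, with a median log2 fold change of -0.02. Over all tested genes 32.5% were higher and 32.9% lower. With rapamycin against vehicle 1 was higher (16.7%), 2 lower (33.3%) and 3 did not pass, beside 24.6% and 26.2% of all tested genes. Slc38a2 (SNAT2; ENSMUSG00000022462, chromosome 15 from 96687392 to 96699730), the carrier that cells raise when amino acids run short, was at 33.1, 41.15 and 37.0 CPM in vehicle, 47.8, 56.7 and 62.9 in rapamycin and 76.8, 74.9 and 76.9 in Torin-2. The 3 groups were separate and ascending. Torin-2 was 2.05-fold above vehicle (log2 fold change 1.04, SE 0.098, adjusted p = 1.92e-06), rapamycin 1.51-fold above vehicle (0.59, SE 0.099, adjusted p = 0.000411) and Torin-2 1.36-fold above rapamycin (0.45, SE 0.097, adjusted p = 0.00248).

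Its neighbour Slc38a1 (SNAT1), a close paralogue with a similar substrate range, lies 44478 bases away on the same strand with 0 protein-coding genes between, and did not follow it. Slc38a1 was at 102, 105 and 103 CPM in vehicle, 87.7, 85.0 and 88.2 in rapamycin and 89.7, 88.5 and 86.3 in Torin-2. It was slightly lower with both compounds (log2 fold change -0.23, adjusted p = 0.00115 for Torin-2 and -0.25, adjusted p = 0.00109 for rapamycin), and did not pass between them (0.02, 95% interval -0.09 to 0.13, adjusted p = 0.758).

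Slc38a6, a less studied member of the family, was at 30.2, 32.5 and 31.8 CPM in vehicle, 17.4, 17.6 and 17.4 in rapamycin and 17.1, 16.1 and 15.0 in Torin-2. Vehicle lay clearly above either compound, with log2 fold changes of -0.97 (adjusted p = 3.3e-07) for Torin-2 and -0.85 (adjusted p = 3.86e-06) for rapamycin. Between the compounds the change was -0.12 (95% interval -0.29 to 0.05, adjusted p = 0.213), which did not pass although the samples did not overlap.

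Slc38a10, which carries glutamate, glutamine and other amino acids, followed the pattern of Slc7a1. It was at 189, 179 and 198 CPM in vehicle, 185, 170.2 and 162 in rapamycin and 125, 121 and 121 in Torin-2. Torin-2 lay below both (log2 fold change -0.63, adjusted p = 2.5e-06 against vehicle and -0.50, adjusted p = 4.29e-05 against rapamycin), and rapamycin overlapped vehicle (-0.13, 95% interval -0.26 to 0.00, adjusted p = 0.0939), though it passed as lower with library totals alone (-0.225, adjusted p = 0.0068) and without rapamycin replicate 1 (-0.18, adjusted p = 0.0294). It overlaps Gm11769 over 367 exon bases, and Gm11769 passed in no comparison.

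The lysosomal members of the family changed little. Slc38a9, the lysosomal arginine sensor that reports to mTORC1, was at 26.0, 27.5 and 22.5 CPM in vehicle, 23.4, 29.55 and 28.7 in rapamycin and 32.1, 32.4 and 28.9 in Torin-2. Torin-2 was higher than vehicle by a log2 fold change of 0.29 (SE 0.103, adjusted p = 0.0254). That call did not hold when vehicle replicate 3 (0.21, adjusted p = 0.0965), Torin-2 replicate 1 (0.27, adjusted p = 0.0744) or Torin-2 replicate 2 (0.26, adjusted p = 0.0851) was left out. The other comparisons of Slc38a9 did not pass (0.105 for rapamycin against vehicle, adjusted p = 0.428, and 0.19 between the compounds, adjusted p = 0.155).

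Slc38a7 (SNAT7), which exports glutamine and asparagine from lysosomes, was at 70.7, 71.9 and 60.2 CPM in vehicle, 72.35, 79.2 and 57.9 in rapamycin and 78.9, 83.9 and 70.3 in Torin-2. The groups overlapped, and replicate 3 was the lowest in each. In the fit of all samples with no block, no comparison passed (log2 fold change 0.20, adjusted p = 0.136 for Torin-2 against vehicle). With the replicate number as a block Torin-2 was higher than vehicle (0.20, adjusted p = 0.00565), as it was with no filter (0.21, adjusted p = 0.0224) and with number 3 left out (0.19, adjusted p = 0.0332), and higher than rapamycin (0.16, adjusted p = 0.0266).

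In family 43 the 2 tested members differed. Slc43a2 (LAT4), which passes branched-chain amino acids and phenylalanine down their gradient, was the most abundant transporter by CPM, at 558, 491 and 509 in vehicle, 634, 559.9 and 596 in rapamycin and 533.5, 539 and 527 in Torin-2. Rapamycin was higher than vehicle by a log2 fold change of 0.20 (SE 0.063, adjusted p = 0.0197), and Torin-2 was not (0.04, 95% interval -0.10 to 0.18, adjusted p = 0.616). The rapamycin call was lost with library totals alone (0.10, adjusted p = 0.188), with number 3 left out of every group (0.185, adjusted p = 0.0686), and without vehicle replicate 2 (0.16, adjusted p = 0.0734), vehicle replicate 3 (0.185, adjusted p = 0.0548) or rapamycin replicate 1 (0.16, adjusted p = 0.0835). Between the compounds it missed the threshold (-0.16, adjusted p = 0.0518) and passed with the block (-0.16, adjusted p = 0.0216). Slc43a2 shares 922 exon bases with Gm45606, which was higher by 0.44 with rapamycin and also by 0.435 with Torin-2.

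Slc43a3, placed in the family by sequence and known as a carrier of purine nucleobases rather than amino acids, fell in all 3 comparisons. It was at 43.5, 49.6 and 38.5 CPM in vehicle, 13.65, 14.4 and 21.55 in rapamycin and 10.1, 11.7 and 11.5 in Torin-2. The groups did not overlap, and the log2 fold changes were -1.98 (SE 0.16, adjusted p = 5.17e-07) for Torin-2 against vehicle, -1.40 (SE 0.156, adjusted p = 2.09e-05) for rapamycin against vehicle and -0.575 (SE 0.166, adjusted p = 0.013) between the compounds. The last was lost without Torin-2 replicate 1 (-0.51, adjusted p = 0.0523).

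Family 1 was weakly expressed, and its 3 tested members behaved differently. Slc1a4 (ASCT1), a carrier of serine, alanine and other small neutral amino acids, was a low transcript, lowest in Torin-2. Its counts were 28, 38 and 37 in vehicle, 14, 20 and 25 in rapamycin and 2, 5 and 4 in Torin-2, and as CPM 1.2, 1.84 and 1.78, then 0.901, 0.947 and 1.25, then 0.107, 0.266 and 0.164. Torin-2 lay below all other samples, 8.73-fold under vehicle (log2 fold change -3.13, SE 0.393) and 5.67-fold under rapamycin (-2.50, SE 0.413). These are given as a description, because the gene passed the filter through the groups where it is high. Rapamycin overlapped vehicle (-0.625, 95% interval -1.30 to 0.05, adjusted p = 0.114). Over all alternatives the Torin-2 value ran from -3.48 to -2.89 against vehicle.

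Slc1a2 (GLT-1), the glutamate carrier of astrocytes, was at 2.53, 3.69 and 2.12 CPM in vehicle, 5.34, 4.07 and 3.51 in rapamycin and 2.03, 1.54 and 1.81 in Torin-2. Torin-2 was 2.38-fold below rapamycin (log2 fold change -1.25, SE 0.256, adjusted p = 0.00165), and both comparisons with vehicle fell just outside the threshold (-0.63, adjusted p = 0.0508 for Torin-2 and 0.63, adjusted p = 0.0504 for rapamycin). With the block both passed, at 0.0406 and 0.0275. Astrocyte markers, 12 of 12 with counts, summed to 60.0 to 74.8 CPM in vehicle, 53.6 to 84.6 in rapamycin and 37.3 to 42.99 in Torin-2. Of the 11 tested, 8 were lower (72.7%) and 0 higher in Torin-2 than in rapamycin, beside 24.1% and 24.2% of all tested genes. For rapamycin against vehicle 3 were higher (27.3%) and 0 lower, beside 24.6% and 26.2%. Gfap, the filament protein that defines astrocytes, was at 11.4, 13.05 and 10.5 CPM in vehicle, 22.0, 19.2 and 12.0 in rapamycin and 7.0, 7.17 and 7.60 in Torin-2. Aldoc, the most abundant of the markers, was not higher with rapamycin, with means of 33.0 CPM in vehicle, 25.8 in rapamycin and 16.7 in Torin-2. Aldh1l1 was not lower in Torin-2, with means of 2.61, 3.09 and 3.13 CPM in the same order. The part of astrocyte RNA from the homogenate in the Slc1a2 values was not tested.

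Slc1a5 (ASCT2), a main glutamine importer of dividing cells, ran from 14.01 to 22.9 CPM in vehicle, 13.0 to 16.01 in rapamycin and 16.5 to 21.5 in Torin-2. In the fit with no block it passed in no comparison: the log2 fold change was 0.01 (95% interval -0.34 to 0.37, adjusted p = 0.956) for Torin-2 against vehicle, -0.37 (-0.74 to -0.01, adjusted p = 0.0796) for rapamycin against vehicle and 0.39 (0.02 to 0.75, adjusted p = 0.0748) between the compounds. With the replicate number as a block it was lower with rapamycin than with vehicle (-0.36, adjusted p = 0.00512) and higher with Torin-2 than with rapamycin (0.39, adjusted p = 0.00351).

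The adjusted p of Slc1a5 over all alternatives ran from 0.00512 to 0.332 for rapamycin against vehicle and from 0.00351 to 0.256 between the compounds, and it passed among others without vehicle replicate 3 (-0.54, adjusted p = 0.00775, and 0.38, adjusted p = 0.0273).

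The 19 genes not tested had totals of 0 to 48 counts over all 9 libraries, and 6 had 0 in each (Slc1a7, Slc38a8, Slc38a11, Slc7a9, Slc7a12 and Slc7a15). The filter asked for about 0.483 CPM in 3 samples. Just outside it stood Slc43a1 (LAT3), with 9, 11 and 9 counts in vehicle, 5, 5 and 3 in rapamycin and 2, 1 and 3 in Torin-2. Just inside it stood Slc1a4. Slc3a1, the other heavy chain, and the glutamate carriers Slc1a1 and Slc1a3 were among those not tested.

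Per kb of exon, Slc3a2 was at the top in every group, followed by Slc43a2 at 51.7 in vehicle, 59.4 in rapamycin and 53.1 in Torin-2. Slc7a8 stood at rank 3 in vehicle (44.5), rank 5 in rapamycin (19.75) and rank 9 in Torin-2 (8.26). Slc7a7 went from rank 4 to rank 9 and rank 10, while Slc7a11 went from rank 10 to rank 7 and rank 4, and Slc38a2 from rank 15 to rank 10 and rank 8. Neighbours in this order did not overlap over their 3 samples in 15 of 22 pairs in vehicle, 11 of 22 in rapamycin and 10 of 22 in Torin-2. Pairs that did overlap include Slc43a3 and Slc7a11 in vehicle (9.82 and 9.62), Slc7a8 and Slc38a7 in rapamycin (19.74 and 16.8) and Slc7a8 and Slc7a7 in Torin-2 (8.26 and 8.09).

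**Figure D4:**
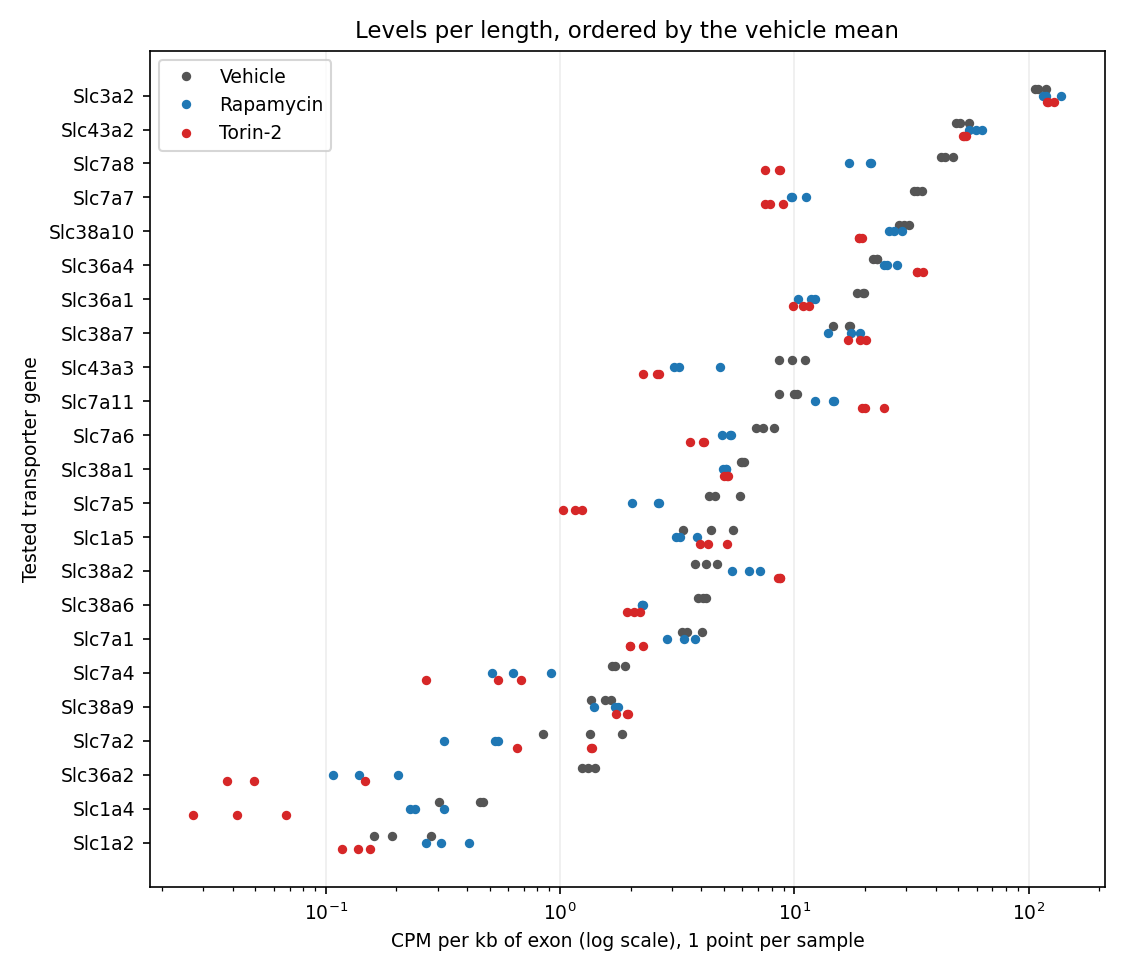
Level of each tested transporter in each sample (x axis, CPM per kb of exon, log scale), ordered by the vehicle mean, with vehicle in grey, rapamycin in blue and Torin-2 in red. Slc3a2 and Slc43a2 stay at the top in all groups, while the red points of Slc7a8, Slc7a7, Slc7a5, Slc36a2 and Slc1a4 lie far left of the grey ones.

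Summed over all 42 genes, the transporters came to 2273 ± 6.90 CPM in vehicle, 2136 ± 40.6 in rapamycin and 2115 ± 86.9 in Torin-2 (SD, n = 3), so the sum moved far less than its parts. Slc7a8 went from 9.79 ± 0.589% of that sum in vehicle to 1.95 ± 0.110% in Torin-2, and Slc7a11 from 5.895 ± 0.5605% to 13.9 ± 1.13%.

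Genes of the pathways that use or sense what these carriers move were taken from lists. Their shares called stand beside the shares of all tested genes, 32.5% higher and 32.9% lower for Torin-2 against vehicle and 24.6% and 26.2% for rapamycin, and are a description. Other amino acid carriers, 20 tested, had 8 higher (40%) and 9 lower (45%) for Torin-2 against vehicle (median log2 fold change -0.28) and 3 higher (15%) and 8 lower (40%) for rapamycin (-0.27). Among them Slc15a3, a lysosomal histidine and peptide carrier, changed by -1.60 (adjusted p = 6.06e-10) with Torin-2. Slc25a13, the mitochondrial aspartate-glutamate carrier, changed by -1.53 (adjusted p = 4.52e-08). Slc6a9, a glycine carrier, changed by -2.72, given as a description. It passed the filter through vehicle and rapamycin (means of 1.74 and 1.04 CPM) and was at 0.26 CPM in Torin-2.

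In the machinery by which mTORC1 senses amino acids, 34 genes were tested, with 9 higher (26.5%) and 13 lower (38.2%) for Torin-2 against vehicle (median -0.07) and 5 higher (14.7%) and 11 lower (32.4%) for rapamycin (median -0.03). For Torin-2 these shares lie near those of all genes. Largest with Torin-2 were the falls of Gatsl2, a relative of the arginine sensor, at -2.76 (adjusted p = 3.59e-09), of Sesn3, of the sestrin family that holds the leucine sensor, at -2.43 (adjusted p = 1.7e-08), and of Sec13, a subunit shared by GATOR2 and the COPII coat, at -2.38 (adjusted p = 1.38e-10).

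ATF4 and the genes of its amino acid response, 26 tested, had 9 higher (34.6%) and 16 lower (61.5%) for Torin-2 against vehicle (median -0.85) and 4 higher (15.4%) and 9 lower (34.6%) for rapamycin (median -0.04). The largest changes with Torin-2 were falls: Pycr1, of proline synthesis, by -4.67, and Chac1, which degrades glutathione, by -4.02. Both are given as a description, because they passed the filter through vehicle and rapamycin, where they are high. Their Torin-2 means were 0.107 and 0.116 CPM, beside 2.64 and 1.94 in vehicle. Next came Psat1, of serine synthesis, by -4.00 (adjusted p = 8.3e-10). The Atf4 transcript itself, named after its values were seen, was 100.3 ± 13.55 CPM in vehicle, 108 ± 23.6 in rapamycin and 292 ± 28.6 in Torin-2 (SD, n = 3; log2 fold change 1.54, adjusted p = 1.62e-06 for Torin-2 against vehicle).

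Of the cystine and glutathione genes, 19 tested, 7 were higher (36.8%) and 10 lower (52.6%) for Torin-2 against vehicle (median -0.28) and 8 higher (42.1%) and 4 lower (21.1%) for rapamycin (median 0.31). Beside the rise of Slc7a11 stood falls of Chac1, given above as a description, Hmox1, the haem oxygenase, by -1.92 (adjusted p = 2.39e-07) and Nqo1, a quinone reductase, by -1.49 (adjusted p = 2.95e-06). For arginine use, 13 tested, 3 were higher (23.1%) and 7 lower (53.8%) with Torin-2 and 2 higher (15.4%) and 8 lower (61.5%) with rapamycin. Torin-2 lowered Srm and Odc1, of polyamine synthesis, by -2.69 (adjusted p = 4.31e-09) and -2.07 (adjusted p = 5.1e-09). The mitochondrial arginase Arg2 was higher with Torin-2 by 4.06, given as a description because only the Torin-2 group brought it past the filter. Its means were 0.172 CPM in vehicle, 0.166 in rapamycin and 2.93 in Torin-2. Rapamycin raised the cytosolic arginase Arg1 by 4.13 (adjusted p = 4.77e-06), in the group where the arginine carrier Slc7a2 was lowest.

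Glutamine and glutamate genes, 13 tested, had 2 higher (15.4%) and 10 lower (76.9%) with either compound against vehicle (medians -0.825 for Torin-2 and -0.455 for rapamycin). With Torin-2, Asns, the asparagine synthetase, changed by -3.14 (adjusted p = 1.5e-08) and Gfpt1, of hexosamine synthesis, by -1.44 (adjusted p = 6.24e-08). For branched-chain amino acid breakdown, 16 tested, 2 were higher (12.5%) and 9 lower (56.2%) with Torin-2 (median -0.43) and 3 higher (18.8%) and 9 lower (56.2%) with rapamycin (median -0.34). Ivd, the isovaleryl-CoA dehydrogenase, changed by -1.45 (adjusted p = 4.04e-08) with Torin-2, and the subunits of the branched-chain ketoacid dehydrogenase split, Bckdha by 1.345 (adjusted p = 2.17e-09) and Bckdhb by -1.33 (adjusted p = 4.21e-05). Several genes stand in more than 1 list, and the lists are described by counts with no test of the list.

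Between the compounds, where 24.2% of all tested genes were higher and 24.1% lower in Torin-2, the other carriers had 6 higher and 7 lower (30% and 35%), amino acid sensing 9 and 11 (26.5% and 32.4%) and ATF4 and its targets 7 and 11 (26.9% and 42.3%). Cystine and glutathione genes had 2 and 10 (10.5% and 52.6%), arginine use 5 and 6 (38.5% and 46.2%), glutamine and glutamate 3 and 6 (23.1% and 46.2%) and branched-chain breakdown 3 and 4 (18.8% and 25%), the last near the shares of all genes. Of the ATF4 list, Asns was lower in Torin-2 (-2.43, adjusted p = 5.28e-07). Chac1 (-4.38) and Pycr1 (-4.00) were lower too, again as a description because of how they passed the filter. Of the arginine genes, Arg1 was lower in Torin-2 (-3.67, adjusted p = 8.18e-06) and Arg2 higher (4.02), the latter again as a description.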

How the data were processed

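Polyadenylated RNA of 9 macrophage cultures was sequenced as paired reads of 100 bases. The authors deposited raw counts per gene. Per the submitters' processing notes, reads were handled with STAR 2.5.2a, FastQC and bcl2fastq, and the builds named are GRCm38.p6 and mm10. How reads were counted, on which annotation and with what strand setting, is not given in the sources used here, so overlapping genes cannot be told apart.

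From these counts, in R 4.3.3 with edgeR 4.0.16, genes were kept with filterByExpr by group and libraries scaled by TMM (factors 0.955 to 1.05). A quasi-likelihood fit of all 9 libraries in 3 groups was tested 2-sided for 3 contrasts, with Benjamini-Hochberg adjustment over 12511 genes at 0.05. The common biological coefficient of variation was 9.96%. CPM use TMM-scaled library sizes. CPM per kb divides by the exon union of GENCODE M21, in which all 42 transporters were found by identifier and symbol. SE is the log2 fold change over the square root of F. The fit was tested on simulated data.

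Per-sample values are given for tested transporters that passed with an absolute log2 fold change of at least 1 in any comparison or had a mean of at least 20 CPM over 9 samples, and of each other list up to 3 genes with the largest changes. A gene that this rule takes is not reported here. The transporters and lists were chosen with earlier results of these data known.

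Deviations of the samples from their group means correlated at 0.168 to 0.5 in 9 same-numbered pairs and at -0.358 to 0.162 in 18 others. Among the others, pairs of a number 3 with a number 1 or 2 gave -0.358 to -0.18. Pairs of a number 1 with a number 2 gave 0.027 to 0.162. Number 3 thus stood apart, while numbers 1 and 2 were only weakly told apart. Use of the number as a block rests on this check, since the labels do not say what a number marks. Alternatives were RLE scaling, library totals, other filters, only the groups compared, the block, DESeq2 1.42.0 and left-out samples.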

Additional observations from a re-analysis of the deposited data

How the results depend on the processing

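Over the alternatives tried, no call of the 23 tested transporters reversed. For Torin-2 against vehicle, 372 of 390 repeats kept the side of the threshold, 3 lost a call and 15 gained one. For rapamycin against vehicle these numbers were 369 of 390, 7 and 14, and for Torin-2 against rapamycin 371 of 389, 1 and 17. The number of transporters higher with rapamycin, 4, dropped to 2 with library totals alone and to 2 with number 3 left out of every group. The cause was not tested. With the replicate block, 6 transporters were higher and 14 lower for Torin-2 against vehicle, 6 and 12 for rapamycin against vehicle, and 6 and 10 between the compounds, out of 8713, 7003 and 6831 genes called. The block changed the calls of Slc3a2, Slc38a7, Slc1a2, Slc1a5 and Slc43a2 given in the report and no other call of these 23. Beside Slc1a5, of the results whose call changed under any alternative, the adjusted p over all alternatives ran, for Torin-2 against vehicle, from 0.0114 to 0.317 for Slc3a2, 0.00565 to 0.383 for Slc38a7, 0.00606 to 0.0965 for Slc38a9 and 0.0218 to 0.231 for Slc1a2. For rapamycin against vehicle it ran from 0.0438 to 0.51 for Slc3a2, 0.00377 to 0.14 for Slc36a4, 0.00587 to 0.188 for Slc43a2, 0.0068 to 0.519 for Slc38a10 and 0.0138 to 0.194 for Slc1a2, and between the compounds from 0.0266 to 0.798 for Slc38a7, 0.0216 to 0.268 for Slc43a2, 3.18e-06 to 0.0523 for Slc43a3 and 0.0118 to 0.355 for Slc36a2. Library totals alone moved the median of all genes by -0.095 for rapamycin against vehicle. Low counts limit Slc36a2, Slc1a4 and Slc1a2 most, and changes are relative to the other genes.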
